A study of Mus musculus with 16 samples.

Results

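The genes described here are the 10 rows of the mouse heart table whose Ensembl identifiers map to Emr1 (now Adgre1), Csf1r, Cd68, Cd163, Mrc1, Lyve1, Ccr2, Trem2, Lgals3 and Gpnmb, out of 22372 protein-coding genes. They were chosen by name as genes of resident and recruited macrophages and not by a cut on a measured value, but with earlier results of these data known. All 10 were found, and all 10 were among the 13331 genes that reached at least 10 normalized counts in at least 4 libraries and entered the test. RNA was sequenced from pieces of heart ventricle of male C57BL/6J mice that were 10 to 12 weeks old when the experiment began. In Sham-Veh the aorta was left unconstricted and the vehicle was given, and in TAC-Veh the vehicle followed transverse aortic constriction (TAC), a suture around the aortic arch that puts the left ventricle under pressure overload. Sham-THZ1 and TAC-THZ1 had the same operations and received THZ1, which binds the transcriptional kinases Cdk7, Cdk12 and Cdk13 covalently and blocks them. The drug was injected into the peritoneum at 10 mg/kg, with 2 injections daily, over days 1 to 60 that followed the operation. Each group had 4 libraries, for which the labels give replicate numbers and no sequencing batch. THZ1 was given to the whole animal and not to a single cell type.

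The healthy heart holds resident macrophages, many of them seeded before birth and kept up by local division, which clear debris and carry scavenger receptors such as Cd163, Mrc1 and Lyve1. Injury and overload draw in monocytes that carry Ccr2, and these become macrophages in the tissue. Macrophages that take up lipid or dying cells raise a further set of genes, with Trem2, Lgals3 and Gpnmb among them. Emr1, Csf1r and Cd68 are shared by most mouse macrophages whatever their origin. None of the 10 genes is restricted to macrophages, since Lyve1 and Mrc1 are also made by lymphatic endothelium and Lgals3 and Gpnmb by other cells.

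The values are normalized counts, that is, reads per gene divided by a size factor of the library. The libraries held 21.4 to 35.8 M reads in protein-coding genes, with a median of 28.2 M, and the members had between 26 reads (Trem2 in its lowest library) and 2646 reads (Csf1r in its highest) per library. Counting error was therefore small for Csf1r and Mrc1 and larger for Trem2, Gpnmb, Ccr2 and Lgals3, and the spread between libraries of a group was 2.97 to 93.5 times the counting variance over all genes. Cardiomyocyte markers, 6 of 6 of them at high levels, summed to 641541 to 1288756 normalized counts per library, whereas 3 atrial markers summed to 25.1 to 82.3 and 3 markers of alveolar lung to 0 to 2.44. The cardiomyocyte sum was lowest in TAC-Veh (641541 to 931154), where 3 of the 6 markers were lower than in Sham-Veh. The summed markers were 10651 to 16617 for endothelium, 425 to 621 for dendritic cells, 30.6 to 100.1 for B cells, 27.9 to 83.9 for mast cells, 8.04 to 27.3 for T cells and 3.46 to 22.8 for natural killer cells. Only 1 of the 4 dendritic cell markers was high enough to be tested, and these sums do not rank the cell types. Nothing in the labels says that the libraries of a group came from separate mice, so p-values measure the spread between libraries. In bulk tissue, fewer macrophages and less of a transcript per macrophage cannot be told apart, and this holds for every value below.

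Expressed per kilobase of merged exon, the members spanned more than an order of magnitude. In Sham-Veh the order of mean counts per kb was Csf1r (277 ± 10.4, SD, n = 4), Lyve1 (222 ± 19.7), Mrc1 (194 ± 20.0), Cd68 (175 ± 9.05), Cd163 (155 ± 12.6), Emr1 (109 ± 20.3), Lgals3 (46.8 ± 2.80), Ccr2 (18.7 ± 2.42), Gpnmb (12.0 ± 2.79) and Trem2 (7.86 ± 1.56). Of the 9 pairs of neighbors in this order, 4 overlapped in their library values, namely Lyve1 with Mrc1, Mrc1 with Cd68, Ccr2 with Gpnmb and Gpnmb with Trem2. The receptors of resident and general macrophages were thus the abundant members in the unstressed ventricle, and the monocyte receptor Ccr2 and the genes of lipid-laden macrophages were the scarce ones. In TAC-Veh, Lgals3 held rank 5 with 198 ± 133 counts per kb, Trem2 held rank 8 with 23.6 ± 3.93, and 8 of the 9 pairs of neighbors overlapped.

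Setting TAC-Veh against Sham-Veh shows where these genes stood in the pressure-overloaded ventricle. Trem2, Lgals3, Gpnmb, Emr1 and Cd68 were higher in TAC-Veh, with fold changes from 1.44 to 3.43, and none was lower. That is 5 of 10 where 21.4% of all genes tested were called higher and 23.6% lower (limma on log2(normalized count + 1), Benjamini-Hochberg adjusted p under 0.05). The scavenger receptors Cd163, Mrc1 and Lyve1, the monocyte receptor Ccr2 and the growth factor receptor Csf1r did not pass the test. The median log2 fold change of the 10 members was 0.41, beside -0.0030 over all genes tested. Every TAC-Veh value lay above every Sham-Veh value for Trem2, Lgals3 and Emr1, a separation that 18.2% of all genes tested showed. At the larger fold used in the study, a log2 fold change of at least 1, Trem2 and Lgals3 were called, as were 4.64% of all genes tested.

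**Figure D1:**
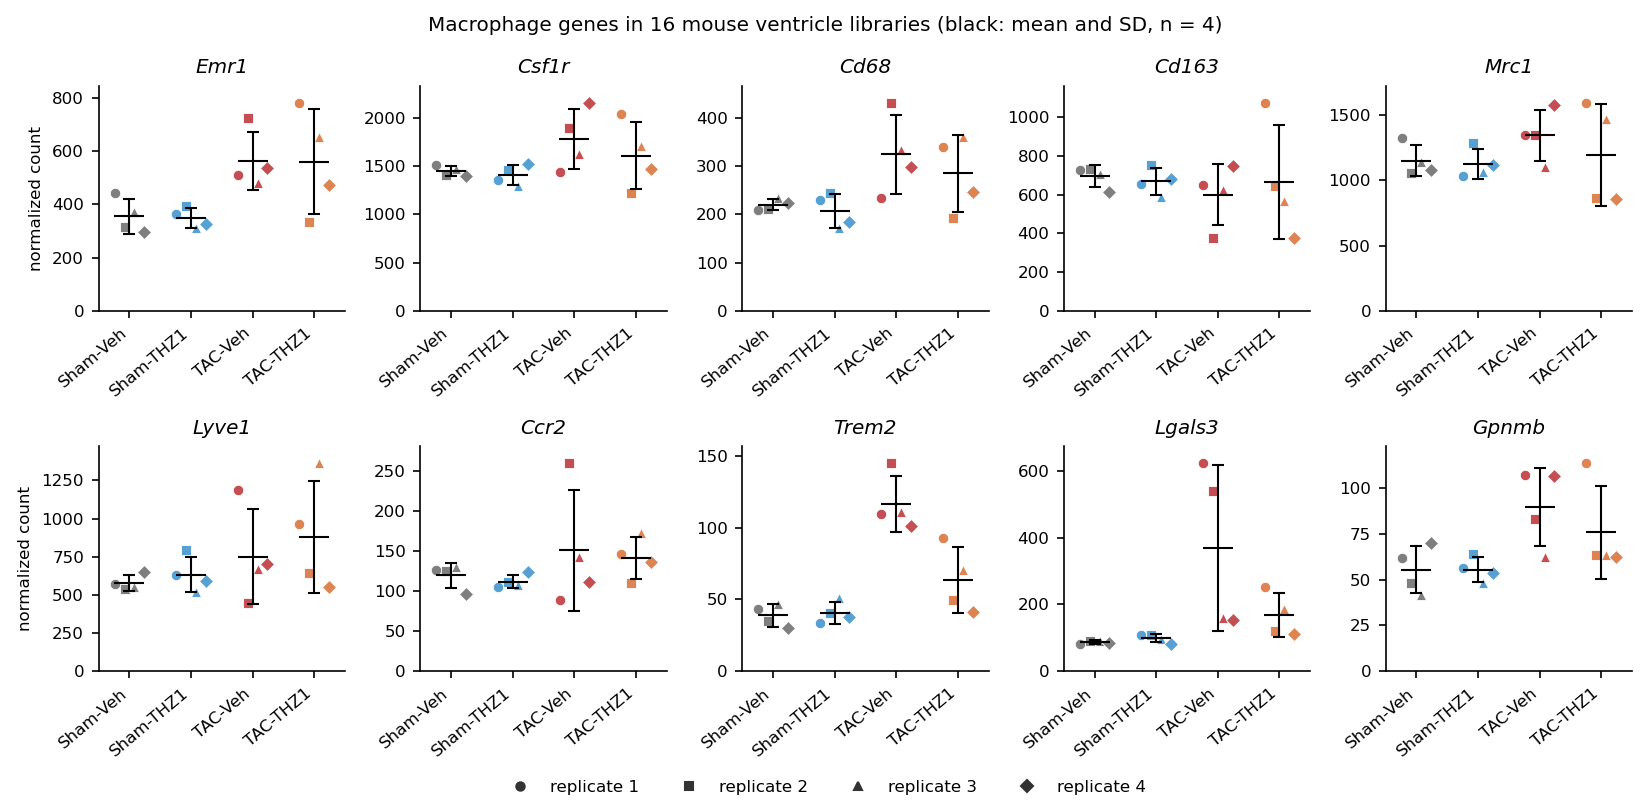
Normalized counts of the 10 macrophage genes, 1 panel per gene with its own linear axis from 0, in Sham-Veh (grey), Sham-THZ1 (blue), TAC-Veh (red) and TAC-THZ1 (orange). Points are single libraries with the shape giving the replicate number, and black bars are the mean and SD (n = 4). Trem2 in TAC-Veh lies at 101 to 145, and Lgals3 in TAC-Veh falls into a high pair (623 and 538) and a low pair (159 and 153).

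Trem2, a receptor that binds lipids and apolipoproteins and signals through the adaptor Tyrobp, lies on chromosome 17 from 48485726 to 48493472 (mm9, plus strand). Its normalized counts were 43.5, 35.3, 46.9 and 29.9 in Sham-Veh replicates 1 to 4 and 109, 145, 111 and 101 in TAC-Veh. The TAC-Veh libraries were close to each other and all well above sham. The fold change was 2.97 (95% interval 2.14 to 4.12, adjusted p 4.21e-05), and Trem2 was called in 27 of 27 alternative fits, with log2 fold changes from 1.45 to 1.66.

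Lgals3 encodes galectin-3, a secreted lectin that binds galactosides and is abundant in activated macrophages, and lies on chromosome 14 from 47987426 to 48005835 (mm9, plus strand). It had 80.6, 91.4, 91.1 and 85.0 normalized counts in Sham-Veh and 623, 538, 159 and 153 in TAC-Veh. All TAC-Veh libraries exceeded sham, but replicates 1 and 2 were far above replicates 3 and 4. The fold change of 3.43 was the largest among the members and had the widest interval (1.97 to 5.99, adjusted p 0.00128), and it was called in 27 of 27 alternative fits.

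Gpnmb, a transmembrane glycoprotein of lysosome-rich macrophages, lies on chromosome 6 from 48986517 to 49020928 (mm9, plus strand). Normalized counts were 61.5, 48.1, 41.6 and 70.1 in Sham-Veh and 107, 82.9, 62.4 and 106 in TAC-Veh. Replicate 3 of TAC-Veh lay within the sham range and the other 3 lay above it. The fold change was 1.61 (1.16 to 2.22, adjusted p 0.0185). The call was lost without Sham-Veh replicate 2 or 3 or TAC-Veh replicate 1 or 4, where the log2 fold change was 0.56 to 0.63 and the adjusted p 0.0506 to 0.0659, and with array weights (log2 0.67, adjusted p 0.0522).

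The starts of these genes are shown because the members that rose with TAC are those on which the comparison turns. RefSeq promoter entries (GRCm38.p6) matched 7 of the 10 members, and the 250 bases before the annotated start are given 5′ to 3′ on the strand of the gene for the 4 called members with an entry (Emr1, the other called member, is not shown). Capitals mark matches to TGANTCA, a loose pattern used for the AP-1 family of transcription factors, in which N is any base. It was searched on both strands together with AGGAAGT of the ETS family and the E-boxes TCATGTG and TCACGTG.
Trem2 (chr17:48346151-48346400, plus strand): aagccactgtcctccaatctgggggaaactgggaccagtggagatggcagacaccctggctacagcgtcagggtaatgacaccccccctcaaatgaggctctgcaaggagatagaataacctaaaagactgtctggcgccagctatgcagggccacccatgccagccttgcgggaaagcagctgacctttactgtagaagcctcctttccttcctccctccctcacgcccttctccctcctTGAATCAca
Lgals3 (chr14:47373610-47373859, plus strand): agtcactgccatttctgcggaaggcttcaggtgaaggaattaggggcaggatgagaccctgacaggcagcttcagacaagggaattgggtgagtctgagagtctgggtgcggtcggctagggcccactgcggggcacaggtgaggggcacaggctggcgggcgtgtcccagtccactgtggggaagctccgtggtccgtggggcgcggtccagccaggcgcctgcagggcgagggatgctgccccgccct
Gpnmb (chr6:49036268-49036517, plus strand): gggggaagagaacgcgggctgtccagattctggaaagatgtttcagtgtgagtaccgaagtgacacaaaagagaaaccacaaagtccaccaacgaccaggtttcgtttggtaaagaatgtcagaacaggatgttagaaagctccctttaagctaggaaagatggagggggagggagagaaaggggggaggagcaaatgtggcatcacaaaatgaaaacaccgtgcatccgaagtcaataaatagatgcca
Cd68 (chr11:69666171-69666420, minus strand): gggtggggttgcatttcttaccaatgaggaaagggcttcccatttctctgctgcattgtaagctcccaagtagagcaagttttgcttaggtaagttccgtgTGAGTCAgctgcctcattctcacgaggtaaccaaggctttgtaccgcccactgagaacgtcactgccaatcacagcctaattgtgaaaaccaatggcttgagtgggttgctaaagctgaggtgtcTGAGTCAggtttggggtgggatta
The Trem2 window held the match TGAATCA at bases 9 to 3 before the start. The Cd68 window held the match TGAGTCA at bases 149 to 143 and again at bases 24 to 18 before the start. The Lgals3 and Gpnmb windows held none of the 4 motifs. Over all 32851 promoters, windows of the same length held TGANTCA in 6.75%, AGGAAGT in 7.69%, TCATGTG in 3.25% and TCACGTG in 3.13%. Among the other matched members, Mrc1 held AGGAAGT on the opposite strand at bases 211 to 205 before its start, and Cd163 and Ccr2 held none of the motifs. These are matches of letters, and binding was not measured here.

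Among the genes shared by most macrophages, Emr1 and Cd68 passed the test and Csf1r did not. Emr1 encodes the F4/80 antigen, an adhesion receptor used to identify mouse macrophages, on chromosome 17 from 57498109 to 57622952. Its normalized counts were 441, 314, 370.5 and 294 in Sham-Veh and 510.3, 724, 481 and 535 in TAC-Veh, so the lowest TAC-Veh value was above the highest Sham-Veh value. The fold change was 1.58 (1.17 to 2.15, adjusted p 0.0165), and the call was lost without Sham-Veh replicate 4 (log2 0.58, adjusted p 0.0546) or TAC-Veh replicate 2 (log2 0.53, adjusted p 0.0605).

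Cd68, a glycoprotein of macrophage lysosomes on the minus strand of chromosome 11 from 69477715 to 69479655, had 210.0, 212, 234 and 224 normalized counts in Sham-Veh and 234, 432, 333 and 299 in TAC-Veh. The lowest TAC-Veh library matched the highest sham library and the other 3 were higher. The fold change was 1.44 (1.08 to 1.91, adjusted p 0.0355). It was the weakest of the 5 calls, since it was lost when any Sham-Veh library or TAC-Veh replicate 2 or 3 was left out, with log2 fold changes of 0.38 to 0.56 and adjusted p-values of 0.0511 to 0.129.

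Csf1r encodes the receptor for Csf1 and interleukin 34, on which macrophages depend for survival, and was the member with the most reads. It had 1517, 1409, 1468 and 1400 normalized counts in Sham-Veh and 1443, 1892, 1628 and 2159 in TAC-Veh. TAC-Veh replicate 1 lay within the sham range and the other 3 lay above it. The fold was 1.22 (1.00 to 1.48, adjusted p 0.0957), and it was called only without TAC-Veh replicate 1 among 27 alternative fits (log2 0.38, adjusted p 0.0290). Csf1r shares 871 exonic bases with Hmgxb3 on the opposite strand, and the counting was stated to use strand.

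The members that are receptors associated with resident macrophages did not pass the test with TAC. Cd163, which takes up complexes of hemoglobin and haptoglobin, had 728, 736, 706 and 612 normalized counts in Sham-Veh and 649, 378, 626 and 748 in TAC-Veh. Only TAC-Veh replicate 4 was above the sham libraries and replicate 2 was far below them, which gave a fold of 0.840 (0.591 to 1.19, adjusted p 0.413). Mrc1, the mannose receptor, had 1323, 1060, 1145 and 1082 in Sham-Veh and 1351, 1348, 1101 and 1580 in TAC-Veh, with a fold of 1.16 (0.899 to 1.50, adjusted p 0.334). The gene of the microRNA Mir511 lies within Mrc1 on the same strand, sharing 79 bases.

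Lyve1, a receptor for hyaluronan, had 573, 537, 553 and 653 normalized counts in Sham-Veh and 1187, 444, 668 and 703 in TAC-Veh. TAC-Veh replicate 1 was the highest and replicate 2 the lowest of these 8 libraries, and the fold was 1.22 (0.827 to 1.81, adjusted p 0.399). Ccr2, the chemokine receptor by which monocytes leave the marrow and enter tissue, had 126, 125, 130.0 and 96.5 in Sham-Veh and 89.4, 259.6, 143 and 111 in TAC-Veh. Its highest TAC-Veh value was replicate 2 and its lowest was replicate 1, the reverse of Lyve1 in those libraries. The fold for Ccr2 was 1.17 (0.825 to 1.65, adjusted p 0.470), so the interval reaches from a decrease to an increase.

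Lyve1 and Mrc1 are read beside markers of lymphatic endothelium, whose part in their values was not tested. The 4 markers summed to 1145 to 1376 normalized counts (Sham-Veh), 1175 to 1269 (Sham-THZ1), 1085 to 1391 (TAC-Veh) and 866 to 1312 (TAC-THZ1). Of the 3 that were tested with TAC, Pdpn rose (log2 1.41, adjusted p 1.75e-05), Prox1 fell (log2 -0.99, adjusted p 0.00159) and Flt4 was not called. Ccl21a was too low to be tested, at 0 in 12 of 16 libraries, and no level of these vessels is read from it.

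Setting TAC-THZ1 against TAC-Veh shows the members in the constricted heart with and without the drug. Only Trem2 changed, at 0.529 of its TAC-Veh level, and no member was higher. That is 1 of 10 lower and 0 of 10 higher, where 14.2% of all genes tested were called lower and 15.1% higher. The edgeR quasi-likelihood test and DESeq2 on the recovered reads each called 2 members lower, Trem2 and Lgals3. Over all 13331 genes tested they called 2025 and 2089 lower. An unadjusted p under 0.05 with limma was reached by 2 of the 10 members and by 5443 of the 13331 genes. The median log2 fold change of the members was -0.17, beside 0.01 over all genes tested. Trem2 was also past the fold threshold of the study for this comparison, a log2 fold change of -0.89 or less, as were 3.62% of all genes. TAC-Veh is shared by this comparison and the one with Sham-Veh, so that the 2 changes of Trem2 are not independent.

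Trem2 had 92.8, 49.6, 70.8 and 41.6 normalized counts in TAC-THZ1 replicates 1 to 4, beside 101 in the lowest TAC-Veh library. TAC-THZ1 replicates 2 and 4 were near the Sham-THZ1 libraries (33.4, 40.6, 50.8 and 37.5), and replicates 1 and 3 lay between them and TAC-Veh. The log2 fold change was -0.92 (95% interval -1.39 to -0.44, adjusted p 0.00619) and the call held in 27 of 27 alternative fits, between -1.12 and -0.74. Against Sham-THZ1, TAC-THZ1 had a Trem2 fold of 1.50 (1.08 to 2.08, adjusted p 0.0655), which was called without TAC-THZ1 replicate 2 (log2 0.68, adjusted p 0.0494) or replicate 4 (log2 0.77, adjusted p 0.0260).

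Lgals3 had 253, 119.7, 187 and 112 normalized counts in TAC-THZ1. These values overlapped the low pair of TAC-Veh libraries (159 and 153) and lay below the high pair. The fold was 0.530 (0.303 to 0.924, adjusted p 0.0794) and did not pass, although limma called it without TAC-Veh replicate 3, TAC-Veh replicate 4 or TAC-THZ1 replicate 1 (log2 -1.24 to -1.14). Gpnmb had 114, 63.7, 63.5 and 62.3 in TAC-THZ1, with replicate 1 above every TAC-Veh library and the other 3 near the lowest of them, and a fold of 0.837 (0.606 to 1.15, adjusted p 0.403).

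Emr1 and Cd68 had TAC-THZ1 levels that overlapped TAC-Veh. Emr1 had 781, 332, 651 and 473 normalized counts in TAC-THZ1, from below to above the TAC-Veh range, with a fold of 0.957 (0.705 to 1.30, adjusted p 0.848). Cd68 had 341, 192, 361 and 246, with a fold of 0.873 (0.658 to 1.16, adjusted p 0.473), and Csf1r had 2044, 1221, 1706 and 1469, with a fold of 0.899 (0.739 to 1.09, adjusted p 0.408). The interval of each of the 3 genes runs from a decrease to an increase.

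The receptors of resident macrophages had a larger SD in TAC-THZ1 than in the other groups, and Ccr2 did not. Cd163 had 1076, 645, 569.6 and 375 normalized counts there (fold against TAC-Veh 1.07, interval 0.751 to 1.51). Mrc1 had 1597, 862, 1471 and 860.0 (fold 0.861, interval 0.667 to 1.11). Lyve1 had 961, 644, 1364 and 549, the largest SD of the 4 groups at 368 (fold 1.17, interval 0.791 to 1.73). Ccr2 had 146, 109, 173 and 137, within the TAC-Veh range (fold 1.01, interval 0.713 to 1.42). No member of this group was called, and the adjusted p-values were 0.375 to 0.980.

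**Figure D2:**
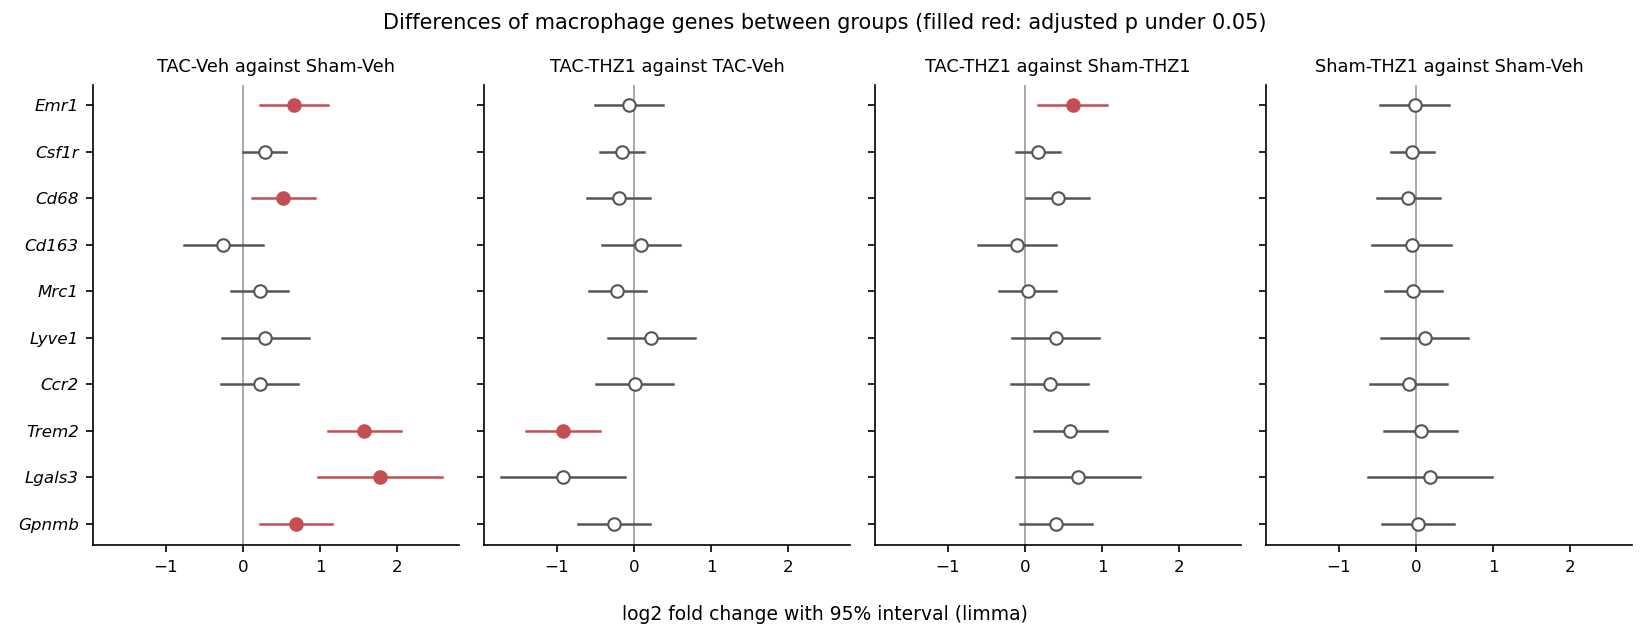
Log2 fold changes of the 10 macrophage genes with 95% intervals from limma in 4 comparisons (16 libraries in 1 fit), with filled red points at an adjusted p under 0.05. With TAC under vehicle 5 genes pass, Trem2 (-0.92) alone passes with THZ1 in TAC, Emr1 (0.62) alone with TAC under THZ1, and none with THZ1 in sham.

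Replicates 1 and 3 of TAC-THZ1 held the 2 highest of the 4 values for 8 of the 10 members (not Cd163 and Gpnmb), which was the case for 21.1% of all genes tested. This pair was noticed after the values were seen and was not tested. In the same 4 libraries, a list of 18 further genes of macrophages in general summed to 15210, 7446, 13077 and 8754 normalized counts. The 6 neutrophil markers summed to 7449, 861, 3133 and 143, beside 15 to 388 in the 8 sham libraries and 45 to 226 in TAC-Veh, with S100a8 and S100a9 carrying most of the sum. Ly6g, which defines neutrophils, was at 0 in all 12 libraries outside TAC-THZ1 and at 1.27 to 9.83 normalized counts within it. The 3 erythroid markers summed to 25881, 5889, 14182 and 7380 in TAC-THZ1. The part of other blood cells in the spread of the members was not tested.

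THZ1 in sham hearts changed no member by limma, nor did edgeR or DESeq2 call any. With limma 0 members had an unadjusted p under 0.05, beside 917 of the 13331 genes tested. Over all genes, 0.0675% were called in either direction by this fit, which pools the spread of sham and TAC groups. That spread was 2.97 to 7.51 times the counting variance between sham libraries and 10.2 to 93.5 times between TAC libraries. With the sham groups compared alone, 287 genes were higher and 178 lower of 13331. With array weights, 254 were higher and 259 lower, and neither fit called a member. The Sham-THZ1 values were 309.9 to 394 normalized counts for Emr1, 1290 to 1519 for Csf1r, 172 to 245 for Cd68, 588 to 754 for Cd163, 1036 to 1289 for Mrc1, 519.6 to 793 for Lyve1, 105 to 124 for Ccr2, 33.4 to 50.8 for Trem2, 82.1 to 109.8 for Lgals3 and 48.1 to 64.0 for Gpnmb. Each of these ranges overlapped that of Sham-Veh. The log2 fold changes lay between -0.10 and 0.18 and the adjusted p-values were 0.975 or above. The 95% intervals of the 10 members together reached from -0.62 to 0.98 on the log2 scale, with Lgals3 the widest.

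TAC under the drug, TAC-THZ1 against Sham-THZ1, gave 1 member higher and none lower, where 11.4% of all genes tested were higher and 12.8% lower. Emr1 had a fold of 1.53 (1.13 to 2.08, adjusted p 0.0417). This call was lost in 9 of the 16 fits that left out a library, which were those without Sham-Veh replicate 2 or 3, any Sham-THZ1 library, or TAC-THZ1 replicate 1, 3 or 4 (log2 0.43 to 0.68, adjusted p 0.0508 to 0.142). Lgals3 had 112 to 253 normalized counts in TAC-THZ1 and 82.1 to 109.8 in Sham-THZ1, with a fold of 1.61 (0.921 to 2.80, adjusted p 0.198). The median log2 fold change of the 10 members was 0.40 here, beside 0.41 for TAC under vehicle, each with 9 of 10 members above 0.

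Whether the drug's effect differed between constricted and sham hearts was tested by the interaction, which called none of the 10 members with limma, edgeR or DESeq2. Over all genes tested it called 10.0% in either direction and 5.62% in the lower direction. Trem2 had the lowest adjusted p, 0.0577, with an interaction of -0.98 on the log2 scale (95% interval -1.65 to -0.31). Of the members it alone had an unadjusted p under 0.05, as had 3618 of the 13331 genes tested. It was called without TAC-THZ1 replicate 1 (-1.18, adjusted p 0.0221) and with array weights (-1.08, adjusted p 0.0492). Lgals3 had an interaction of -1.10 (-2.23 to 0.04, adjusted p 0.200). edgeR gave Trem2 an adjusted p of 0.0809 and DESeq2 an adjusted p of 0.0526.

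Dividing each member by Csf1r within the same library shows whether that member and Csf1r moved unequally. The share of macrophage RNA in the piece cancels only where both transcripts come from macrophages, and these genes are not restricted to them. Trem2 relative to Csf1r on the log2 scale was -5.20 ± 0.24 (SD, n = 4) in vehicle shams and -3.92 ± 0.33 after TAC with vehicle. Under the drug it was -5.10 ± 0.31 in shams and -4.68 ± 0.29 after TAC. The difference of TAC-Veh from Sham-Veh was 1.29, and that of TAC-THZ1 from TAC-Veh was -0.76. For both, the exact permutation test (two-sided) gave p = 0.0286, which is the lower limit for groups of 4, and 0.257 after Benjamini-Hochberg adjustment over the 27 ratios tested. Lgals3 relative to Csf1r was -4.04 ± 0.12 in Sham-Veh and -2.55 ± 1.23 in TAC-Veh, a difference of 1.50 with the same exact p-values, and all 4 TAC-Veh ratios were above all Sham-Veh ratios.

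With THZ1 in TAC, Lgals3 relative to Csf1r differed by -0.76 (exact permutation p 0.40, adjusted 0.9495), the size of the Trem2 difference with a wider spread. Cd163 relative to Csf1r was -1.06 ± 0.10 in Sham-Veh and -1.59 ± 0.51 in TAC-Veh, a difference of -0.53 (exact permutation p 0.0571, adjusted 0.386). Gpnmb differed by 0.40 with TAC (exact permutation p 0.229, adjusted 0.686) and Emr1 by 0.38 (exact permutation p 0.114, adjusted 0.514). The other TAC differences were 0.24 for Cd68, -0.07 for Mrc1, -0.06 for Ccr2 and 0.01 for Lyve1. None of the 27 ratios passed after adjustment, and 3 had an exact p under 0.05. The exact p cannot fall below 0.0286, and a few ratios at that limit cannot pass after adjustment over 27. The adjusted values therefore do not decide whether the members moved unequally.

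**Figure D3:**
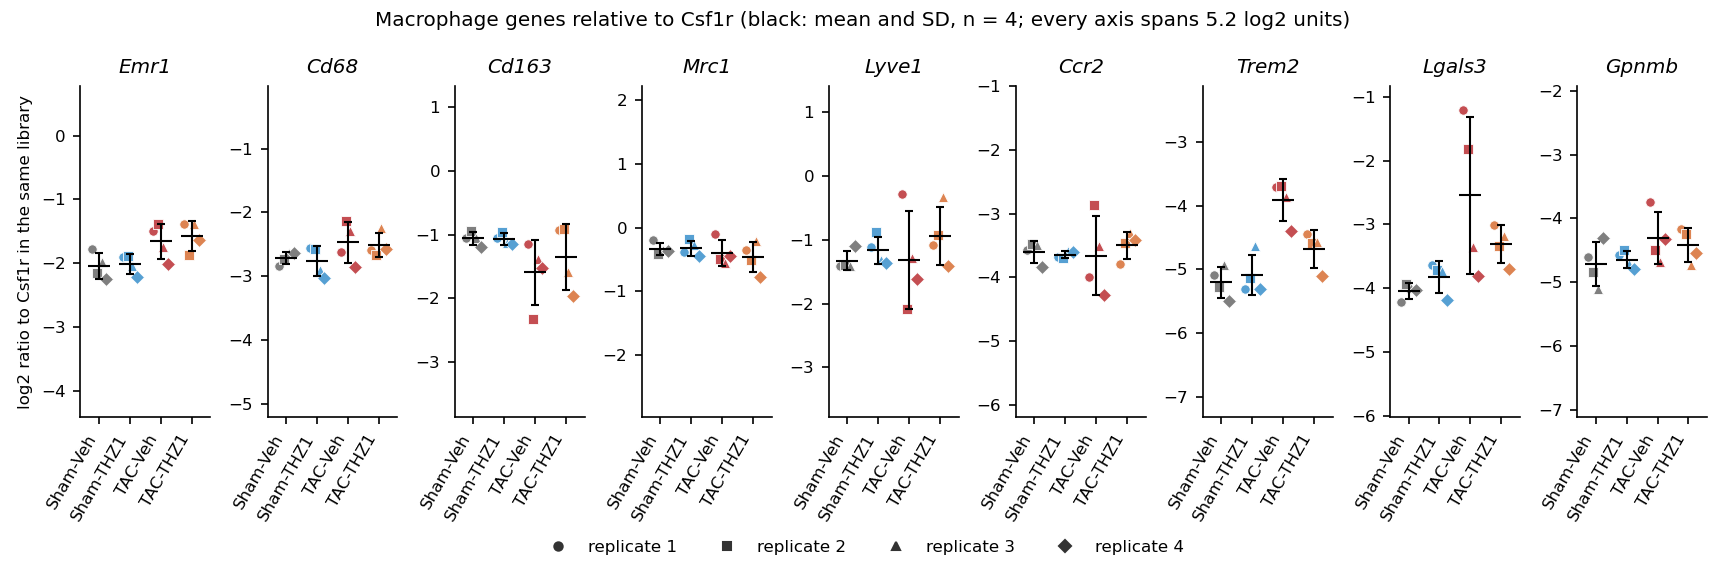
Log2 ratio of 9 macrophage genes to Csf1r in the same library, with points for single libraries (shape gives the replicate number) and black bars for the mean and SD (n = 4). The axes differ in position but have the same span, and the TAC-Veh ratios of Trem2 (mean -3.92) stand above those of Sham-Veh (mean -5.20).

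The members were then set beside 5 lists of related genes, counted by the same fit. Their shares are to be read against the 21.4% and 23.6% of all genes called higher and lower with TAC and the 15.1% and 14.2% called with THZ1 in TAC, and their medians against -0.0030 and 0.01 over all genes. An unadjusted p under 0.05 with THZ1 in TAC was reached by 5443 of the 13331 genes tested. Of 18 further genes of macrophages in general, 11 were higher with TAC and none lower, with a median log2 fold change of 0.77. Under THZ1 in TAC none of the 18 was called, with 1 at an unadjusted p under 0.05 and a median of -0.11, and 8 were higher in TAC-THZ1 than in Sham-THZ1 (11.4% of all genes tested). C1qb, a chain of complement component C1q made by macrophages, had 1057 ± 149.9 normalized counts in Sham-Veh, 2084 ± 397 in TAC-Veh and 1919 ± 619 in TAC-THZ1 (log2 0.97 with TAC, adjusted p 0.00070). Cd14, the co-receptor for endotoxin, had a log2 fold change of 0.97 with TAC (adjusted p 0.000361) and of -0.44 with THZ1 in TAC (adjusted p 0.0701). Tyrobp, the adaptor through which Trem2 signals, went from 230.2 ± 6.01 to 451 ± 114 with TAC (log2 0.93, adjusted p 0.00283) and had 439 ± 155 in TAC-THZ1 (log2 -0.07, adjusted p 0.831), where its receptor Trem2 was lower. Ctss, cathepsin S, rose with TAC by 0.93 on the log2 scale (adjusted p 0.00579).

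Of 15 further genes of resident macrophages, 14 were tested, 5 were higher with TAC and none lower, with a median of 0.14. Igf1, the growth factor, went from 396 ± 22.6 normalized counts to 1066 ± 458 with TAC (log2 1.34, adjusted p 3.82e-05) and fell to 467 ± 59.0 in TAC-THZ1 (log2 -1.11, adjusted p 0.000639). It was the 1 gene of the list lower with the drug, and fibroblasts also make it. Pf4 (log2 0.52), Cbr2 (0.51) and Gas6 (0.30), which were higher with TAC, had log2 fold changes of 0.16, 0.04 and -0.06 with THZ1 in TAC and were not called there. Timd4, a phosphatidylserine receptor of resident macrophages that is named here after its values were seen, had normalized counts of 57.0 to 75.3 (Sham-Veh), 11.8 to 66.4 (TAC-Veh) and 40.7 to 132 (TAC-THZ1). Its log2 fold changes were -0.89 with TAC and 1.18 with THZ1 in TAC (adjusted p 0.104 and 0.05001, the latter just outside the threshold).

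Of 13 genes of monocytes and monocyte-derived macrophages, 9 were tested, and 1 was higher with TAC, none lower. This was Cd52, a surface glycoprotein of leukocytes, with 61.0 ± 4.78 normalized counts in Sham-Veh, 137 ± 53.1 in TAC-Veh and 144 ± 69.5 in TAC-THZ1 (log2 1.08 with TAC, adjusted p 0.00836). It is named because it was the single gene called. With THZ1 in TAC none was called and 1 had an unadjusted p under 0.05. With TAC under THZ1, 3 of the 9 were higher and the median was 1.14, beside 11.4% and 0.0018 over all genes tested. Plac8 (log2 1.54) had at most 8.49 normalized counts in Sham-Veh and 9.54 in Sham-THZ1, so it passed the filter only through TAC libraries. Ms4a4c, which was among the 3, had at most 8.35 in Sham-THZ1. The count and the median are thus set in part by the filter, and no rise of the list is read from them. Ly6c2, the marker of classical monocytes, was too low to be tested, at 1.73 to 28.4 normalized counts.

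Of 20 genes of lipid handling and tissue damage, the company of Trem2, Lgals3 and Gpnmb, 18 were tested. With TAC 12 were higher and 1 lower, and with THZ1 in TAC 10 were lower and none higher, with medians of 0.40 and -0.33. The interaction was called lower for 4 of the 18, beside 5.62% of all genes tested. Ctsk, cathepsin K, had 123 ± 16.4 normalized counts in Sham-Veh, 427 ± 173 in TAC-Veh and 146 ± 16.5 in TAC-THZ1 (log2 1.71 with TAC and -1.46 with THZ1 in TAC, adjusted p 1.24e-05 and 0.00024). Cd9, a tetraspanin, followed with 731 ± 61.0, 1641 ± 422 and 995 ± 66.2 (log2 1.13 and -0.69). Cd63, a lysosomal tetraspanin, rose with TAC by 0.80 on the log2 scale (adjusted p 8.63e-05) and had -0.19 with the drug (adjusted p 0.256). Lpl, lipoprotein lipase, which cardiomyocytes make in quantity, was the gene that fell with TAC (log2 -0.74, adjusted p 0.000529).

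Many genes of that list are also expressed outside macrophages. The 4 fibroblast markers, of which Dcn and Col1a1 rose with TAC and fell with THZ1 in TAC, summed to 16157 to 17957 normalized counts (Sham-Veh), 16492 to 18015 (Sham-THZ1), 31058 to 41254 (TAC-Veh) and 19814 to 29772 (TAC-THZ1). This is the direction of Trem2, Lgals3, Ctsk, Cd9 and Igf1. The part of fibroblasts in the values of these genes was not tested.

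Of 17 ligands and partners of the members, 14 were tested, with 3 higher with TAC (Il34, Tyrobp and Apoe) and 1 lower with THZ1 in TAC (Adam10). Il34, a ligand of Csf1r, had a log2 fold change of 0.55 with TAC (adjusted p 0.0174), and Csf1, the other ligand, had 0.00 (adjusted p 0.996). Apoe, a lipoprotein bound by Trem2, went from 5355 ± 578 normalized counts to 8383 ± 173 (log2 0.65, adjusted p 0.000285) and had 8028 ± 1808 in TAC-THZ1. Ccl2, the main ligand of Ccr2, had 0.15 with TAC (adjusted p 0.863), and Adam10, a protease of cell-surface proteins, had -0.33 with THZ1 in TAC (adjusted p 0.00471). These lists overlap, with Tyrobp and Apoe each in 2 of them.

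**Figure D4:**
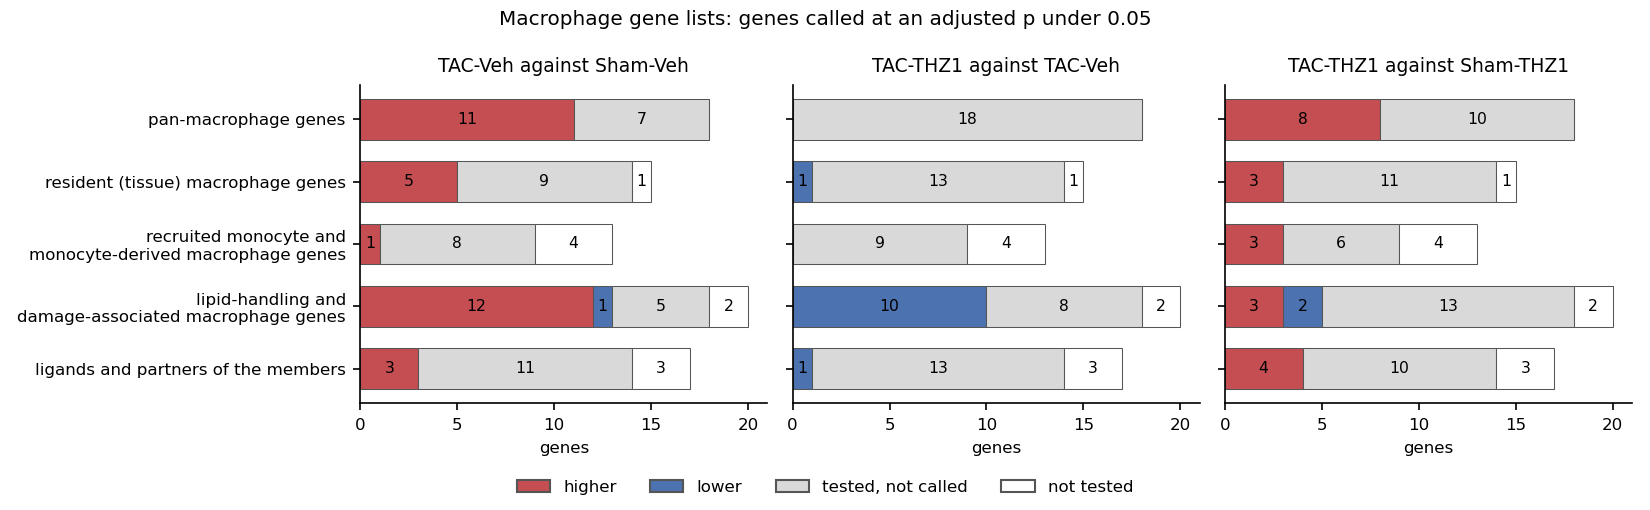
Number of genes of each of 5 lists called higher (red) or lower (blue), tested without a call (grey) or too low to be tested (white) in 3 comparisons, at an adjusted p under 0.05 with limma. The list of macrophage genes in general has 11 of 18 higher with TAC and 0 called with THZ1 in TAC, and the list of lipid handling and damage has 12 higher and 10 lower.

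Profiles over the 16 libraries, each gene centred on its mean of log2(normalized count + 1), were compared by root mean square difference with the 10309 tested genes that had a mean of at least 100 normalized counts. The 5 genes nearest to Csf1r were Rps6ka1, Dab2, Arrb1, Arrb2 and Parp9, with differences of 0.117 to 0.126. Those nearest to Lyve1 were Tubb2c, Hspbp1, Mmrn1, Slc43a3 and Ccl6, at 0.252 to 0.286, and those nearest to Gpnmb were Kbtbd11, Ctla2b, Sorbs3, Tlr7 and Hcls1, at 0.200 to 0.237. A profile with little variation, such as that of Csf1r, is near many others, and these lists are a description of 16 libraries that share depth and group structure.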

How the data were processed

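Mouse ventricle RNA was sequenced in 16 libraries, 4 in each of 4 groups named by the labels. The authors aligned single-end reads of a stranded mRNA library to mm9 with TopHat2 2.1.1, counted reads per GENCODE gene with HTSeq in its reverse-stranded mode and divided each library by a DESeq2 size factor estimated over all mouse libraries. The deposited signal is thus a normalized count per gene and library, and no column was left unused. Within a library every value was a whole multiple of 1 read's worth (100% of values within 0.01), so that whole reads were recovered, with size factors of 0.749 to 1.40.

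Values were tested with limma 3.58.1 (R 4.3.3) after adding 1 and taking log2, in a model of the 4 group means fitted to all 16 libraries, with a trended eBayes. Fold changes are therefore those of log2(normalized count + 1) and come out too small for genes with few reads. Genes needed at least 10 normalized counts in at least 4 libraries, and p-values were adjusted over the 13331 genes left, within each of 5 contrasts. Calls were made at an adjusted p under 0.05. Ratios to Csf1r were tested with exact permutation tests. Positions and merged exon lengths came from the GENCODE annotation on mm9, promoters from RefSeq (GRCm38.p6).

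The members and lists were chosen with earlier results of these data known. From each of the 5 lists, up to 4 genes were named that had the largest change with TAC among those past the adjusted p, with groups that did not overlap and a mean of at least 100 normalized counts. For Csf1r, Lyve1 and Gpnmb the 5 genes of the most similar profile were named. Cd52, Timd4, Vsig4, Plac8, Ms4a4c, Il34, Csf1, Ccl2, Ly6c2, Adam10 and single cell type markers were named after their values were seen.

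The alternatives were other pseudocounts, filters and scalings, the groups compared alone, array weights, a block for the replicate number, the fold thresholds of the study, leaving out each library, and edgeR 4.0.16 and DESeq2 1.42.0 on the recovered reads. Scripts were tested on simulated data. Python 3.11.15, pandas 2.3.3, NumPy 2.4.6, SciPy 1.17.1 and Matplotlib 3.10.9 were used.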

Additional observations from a re-analysis of the deposited data

Results flagged for a closer look

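Among the 40 sets of 4 libraries (10 genes in 4 groups), 2 had a library far from the other 3, and chance alone marks about 1 in 20 such sets. Ccr2 in Sham-Veh replicate 4 was 96.5 normalized counts where the other 3 libraries had 125 to 130.0, a gap of 0.856 of the group's range. Gpnmb in TAC-THZ1 replicate 1 was 114 where the others had 62.3 to 63.7, a gap of 0.975 of the range.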

How the results depend on the processing

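Over 27 alternative fits, the 10 genes in 5 contrasts gave 1340 values, of which 1303 kept their direction and side of the threshold, 24 lost a call, 13 gained one and 0 turned a called direction, while 52 values without a call changed sign. With TAC the 5 calls became 3 to 5 when a library was left out (3 without Sham-Veh replicate 2, 3 or 4 or TAC-Veh replicate 2), and 2 with the fold thresholds of the study. With THZ1 in TAC the 1 call became 2 with edgeR and with DESeq2, and 1 to 2 when a library was left out. With TAC under THZ1 the 1 call became 0 without a filter on low counts and with the fold thresholds, 2 with DESeq2 (Emr1 and Trem2) and with the groups compared alone (Emr1 and Lgals3), and 0 to 3 when a library was left out (3 without TAC-THZ1 replicate 2, where Cd68 was called at a log2 fold change of 0.60 and an adjusted p of 0.0259). The interaction gave 1 call in place of 0 with array weights, and 0 to 1 when a library was left out. THZ1 in sham gave 0 calls throughout. The cause of these changes was not tested.

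Deviations of libraries with the same replicate number had correlations over genes of -0.43 to 0.16 (24 pairs, median 0.02). Those with other numbers had -0.23 to 0.31 (72 pairs, median 0.00055). The labels give no batch, so these correlations cannot show whether libraries of the same number shared one. With the replicate block, 4 members were called with TAC (Cd68 was lost, adjusted p 0.0550), 1 with THZ1 in TAC, 1 with TAC under THZ1, and 0 in sham and for the interaction.

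Of 267 ratios under other settings, 5 moved by more than the spread between replicates, all with Emr1 in place of Csf1r as the reference for TAC. These log2 differences were -0.14 for Cd68, -0.91 for Cd163, -0.45 for Mrc1, 0.91 for Trem2 and 0.02 for Gpnmb. Depth limits Trem2 and Gpnmb most, with 26 to 203 and 36 to 125 reads per library.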
